A study of Mus musculus with 16 samples.

Results

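The 3115 regions described here carried more ATAC-seq signal in Aire-/- than in Aire+/+ medullary thymic epithelial cells (mTECs) with high surface MHC class II (mTEChi). ATAC-seq maps open chromatin through the transposase Tn5, which inserts sequencing adapters into accessible DNA. A region was taken when the lower of the 2 Aire-/- mTEChi libraries reached at least 2 times the higher of the 2 Aire+/+ mTEChi libraries, and the Aire-/- mTEChi mean was at least 30. The rule took 1.24% of the 250313 regions in the deposited table, each 500 bp wide in the mm9 build. It took 4.46% of the 69916 regions whose Aire-/- mTEChi mean reached 30. One further region that met the rule, in a stretch of chromosome 2, was left out beforehand as part of the rule. The Aire-line mTEChi values chose these regions, so they are given below as a description with no test. The other 12 libraries played no part in the choice.

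The series held 16 libraries in 8 groups of 2. mTECs came from the thymi of 4-week-old mice labelled C57BL/6. The groups were Aire+/+, Aire-/-, Brg1+/+ and Brg1-/-, each sorted as mTEChi and as cells with low MHC class II (mTEClo), with 60000 cells per transposition. The Brg1+/+ library names begin with NOCRE, and the labels name no Cre driver and do not state how the Aire-/- and Brg1-/- alleles were made. Whether the Aire line carried Cre or floxed alleles is not stated either. Whether libraries of 1 group are from different animals is not stated, so each p-value rests on a spread between samples that may be technical only.

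mTECs display self-antigens to developing T cells, and in doing so transcribe many genes that are otherwise kept to single peripheral tissues. Aire is a nuclear protein made mostly in mTEChi and needed for much of that transcription, and it acts through partner proteins on chromatin. Brg1 (Smarca4) is an ATPase of the SWI/SNF remodelling complexes, which move or evict nucleosomes. Genes, promoters and sequence at these regions, and markers of the sorted cells, were not analysed here, so every region is named by its position.

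The values are scaled signal whose depth per library is unknown, and library medians over all regions ran from 8.51 to 19.8. The pair of Aire+/+ mTEChi libraries agreed least of the 8 pairs, with a Pearson r of 0.553 across all regions on the log2(signal + 1) scale, against 0.600 to 0.811 for the other pairs. Its replicate 2 also had the lowest median r with the other mTEChi libraries, 0.557 against 0.597 to 0.691. That library was one of the 4 that chose the regions, so the number of regions chosen without it is also given. The regions chosen without it had medians of 1.00 and 0.92 between mTEChi and mTEClo of Brg1+/+ and Brg1-/- cells, with 20.7% and 13.0% called by limma, against 13% and 8.11% of all regions. In bulk libraries, a larger share of cells with a region open and a more open region per cell cannot be told apart.

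At the chosen regions the median signal was 10.9 and 10.3 in the 2 Aire+/+ mTEChi libraries and 42.2 and 41.3 in the 2 Aire-/- mTEChi libraries. The groups do not overlap at any region because the rule required it. Over the chosen regions the median ratio of the lower Aire-/- to the higher Aire+/+ library was 2.57. It lay between 2 and 3 at 2124 regions, between 3 and 5 at 811, between 5 and 10 at 172, and at 10 or more at 8. Most regions were therefore near the threshold, and another 3955 regions with an Aire-/- mean of at least 30 had a ratio from 1.5 to under 2. The Aire-/- mTEChi mean was under 40 at 1450 of the regions and at least 100 at 86. limma, fitted to all 225281 regions that passed a low-signal filter, called 0.0209% of them in this contrast (0.0111% higher), and 23 of its 25 higher calls were among the chosen regions. The rule used this contrast, so nothing is read from that count.

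In the libraries that were not used, the median signal of these regions stood between the 2 Aire genotypes in mTEChi and was low in mTEClo. The median signal was 19.0 and 22.2 in Brg1+/+ mTEChi and 17.2 and 23.3 in Brg1-/- mTEChi. These 4 medians lie above both Aire+/+ mTEChi medians and below both Aire-/- ones. The rule set the Aire+/+ values low and the Aire-/- values high, so a place between them is no finding about the Brg1 line. In mTEClo the medians were 10.7 and 11.4 in Aire+/+ and 11.4 and 12.3 in Aire-/-. They were 8.32 and 7.16 in Brg1+/+ and 8.17 and 9.70 in Brg1-/- mTEClo. The mTEClo levels of the Aire line were thus near the level in Aire+/+ mTEChi, whatever the genotype.

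**Figure D1:**
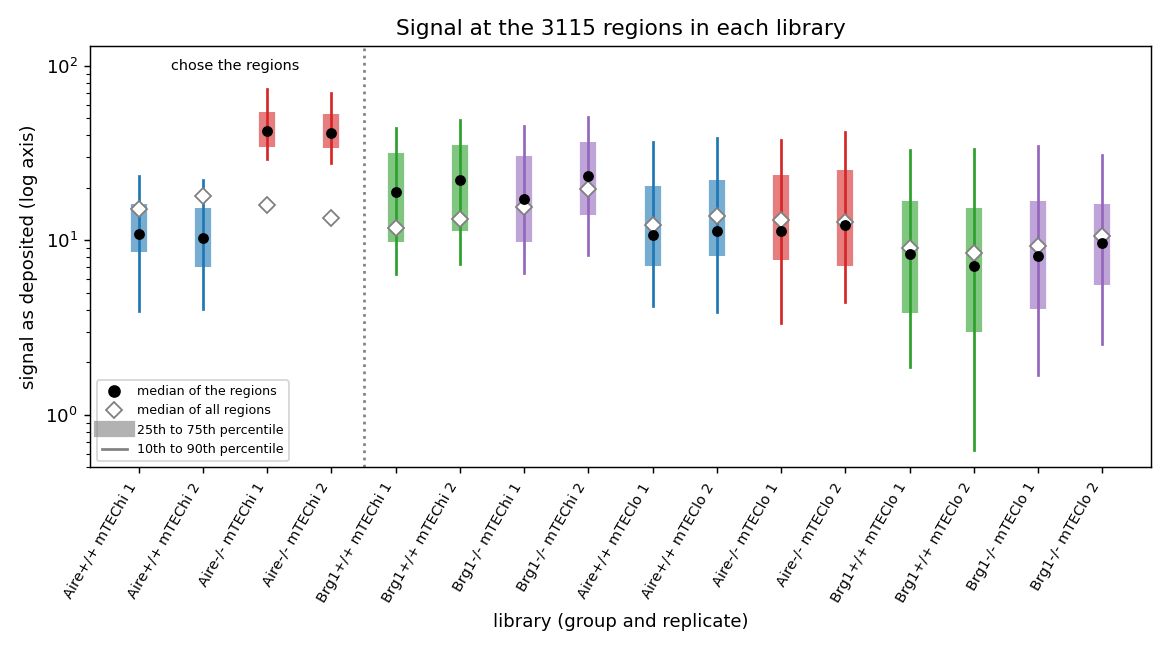
Signal as deposited (log axis) at the 3115 regions in each of the 16 libraries. Black points are medians of the regions, thick bars the 25th to 75th percentile, thin lines the 10th to 90th percentile, and open diamonds the median of all regions. The 2 Aire-/- mTEChi libraries, left of the dotted line among those that chose the regions, have medians of 42.2 and 41.3, and the 4 Brg1-line mTEChi libraries lie between 17.2 and 23.3.

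Ranks within a library, which do not depend on a library's overall scale, also put the Brg1-line mTEChi libraries between the Aire genotypes. The same limit from the rule holds for them. The median percentile rank of the regions was 40.5 and 32.1 in Aire+/+ mTEChi and 80.8 and 81.2 in Aire-/- mTEChi. It was 63.8 and 64.9 in Brg1+/+ mTEChi and 56.6 and 58.7 in Brg1-/- mTEChi. All 8 mTEClo libraries had a median rank between 40.6 and 47.1, above both Aire+/+ mTEChi libraries. By signal, in contrast, the Brg1-line mTEClo medians lay below those of Aire+/+ mTEChi, so the order of mTEClo and Aire+/+ mTEChi depends on the scale.

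The place of the Brg1 line between the Aire genotypes was measured for each region on the log2(signal + 1) scale, with 0 at the Aire+/+ and 1 at the Aire-/- mTEChi mean. Brg1+/+ mTEChi had a median of 0.395 (25th to 75th percentile, 0.112 to 0.663). Both of its libraries were above both Aire+/+ libraries at 1523 regions (48.9%) and neither was above the higher one at 437 (14.0%). Both reached the lower Aire-/- library at 140 regions (4.49%), and both stayed below both Aire-/- libraries at 2329 (74.8%). Both lay between the 2 Aire genotypes at 906 regions (29.1%), so the intermediate median is not the pattern of most single regions. The rule fixed the Aire+/+ values as low and the Aire-/- values as high. No share over all regions is therefore set beside these counts, and they show no trait of the Brg1 line. Brg1+/+ mTEChi was nearer to Aire-/- than to Aire+/+ at 1269 regions (40.7%). Brg1-/- mTEChi had a median of 0.438, with both libraries between the Aire genotypes at 889 regions (28.5%), and was nearer to Aire-/- at 1373 (44.1%). The median Brg1+/+ minus Aire+/+ difference in mTEChi was 0.74 log2 units at the chosen regions and -0.19 over all regions. The rule required the Aire+/+ values to be low, so this shows no difference between the wild types, and where an Aire+/+ library was left out of the rule its median was above both Brg1+/+ medians, as given below.

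For comparison, the mirror-image rule (the lower Aire+/+ mTEChi library at least 2 times the higher Aire-/- one, with an Aire+/+ mean of at least 30) took 2259 regions. At those, Brg1+/+ mTEChi lay a median of 0.293 of the way from the low genotype, Aire-/-, to the high one, and 676 regions (29.9%) were nearer to Aire+/+. Brg1-/- mTEChi lay at 0.449. Both Brg1+/+ mTEChi libraries were above both libraries of the low genotype at 971 regions (43.0%). Both lay between the genotypes at 599 (26.5%). So under either rule the libraries that were not used lay nearer to the low genotype than to the high one at most regions. By median percentile rank too, Brg1+/+ mTEChi (52.2 and 49.7) lay between the genotypes in the mirror-image set. Aire-/- mTEChi had 34.2 and 30.1 there, and Aire+/+ mTEChi 76.3 and 81.6.

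**Figure D2:**
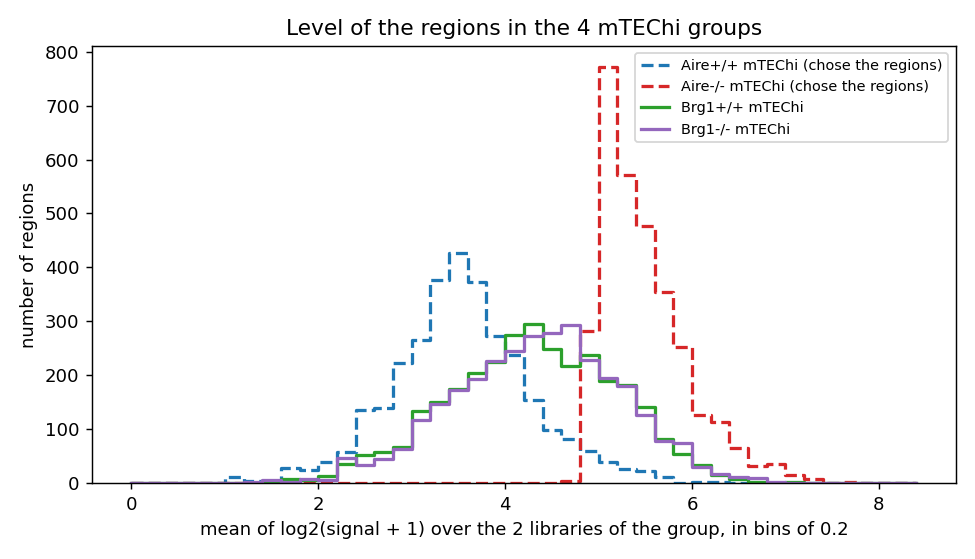
Number of regions by mean log2(signal + 1) over the 2 libraries of each mTEChi group, in bins of 0.2. Dashed lines are the Aire-line groups that chose the regions, and solid lines are the Brg1-line groups, which lie between them and overlap both.

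Each of the 4 choosing libraries was also left out of the rule in turn and then looked at in the regions chosen without it. This comparison was added after the data were seen, and it has no test. Without Aire-/- replicate 1 the rule took 6799 regions, and the left-out library was above both Aire+/+ libraries at 86.3% of them. In its place the 4 Brg1-line mTEChi libraries were above both at 52.5% to 64.8%. The left-out library was at least 2 times the higher Aire+/+ library at 44.6%, against 17.8% to 29.3% for the Brg1 line. Without Aire-/- replicate 2 the rule took 8083 regions, and the left-out library was above both Aire+/+ libraries at 81.7%, against 53.0% to 66.6% for the Brg1 line. A second Aire-/- mTEChi library was thus higher at the regions chosen with the first more often than any of the Brg1-line mTEChi libraries was.

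The low side did not show the same separation. Without Aire+/+ replicate 1 the rule took 12302 regions, and the left-out library was below both Aire-/- libraries at 66.7% of them, against 69.2% to 78.5% for the 4 Brg1-line mTEChi libraries. Its median signal there was 31.9, above the 25.3 and 28.6 of the 2 Brg1+/+ mTEChi libraries. Without Aire+/+ replicate 2, the library that agreed least with the others, the rule took 8841 regions. The left-out library was below both Aire-/- libraries at 74.7%, against 69.9% to 80.7% for the Brg1 line. Its median was 26.0, against 22.7 and 25.7 in Brg1+/+ mTEChi. A left-out Aire+/+ library was therefore below Aire-/- at a share below or within the range over the Brg1-line libraries. Of these 4 sets, 39.3%, 34.0%, 25.3% and 35.2% of the regions were among the 3115.

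The 8 regions with the widest ratio show how the single values lie. On chromosome 10 from 103327294 to 103327793 the signal was 4.38 and 7.42 in Aire+/+ mTEChi and 89.7 and 88.7 in Aire-/- mTEChi, a ratio of 11.95. The same region had 13.6 and 26.0 in Brg1+/+ mTEChi, and 1.85 and 37.6 in the 2 Brg1-/- mTEChi libraries, which lay far apart. In the 8 mTEClo libraries it ranged from 0.530 to 8.31. All 4 Brg1-line mTEChi values thus fell below both Aire-/- values, and 3 of the 4 exceeded both Aire+/+ values.

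On chromosome 2 from 175001257 to 175001756 the signal was 3.10 and 1.51 in Aire+/+ mTEChi and 67.5 and 36.6 in Aire-/- mTEChi. Brg1+/+ mTEChi had 40.03 and 33.9, and Brg1-/- mTEChi had 27.4 and 33.3. Here the Brg1-line mTEChi libraries lay at or near the lower Aire-/- value, and the Aire+/+ libraries stood apart from all 6 others. A region on chromosome 18 from 11731539 to 11732038 had 3.64 and 1.84 in Aire+/+ mTEChi and 42.3 and 52.7 in Aire-/- mTEChi. It had 27.5 and 37.1 in Brg1+/+ but 10.7 and 14.4 in Brg1-/- mTEChi. Chromosome 4 from 73393955 to 73394454 was the other kind of case, with 39.7 and 40.5 in Aire-/- mTEChi and only 6.63 and 2.84 in Brg1+/+ mTEChi, around the 3.95 and 3.96 of Aire+/+. By signal as deposited, chromosome 15 from 5644954 to 5645453 and chromosome 1 from 116352241 to 116352740 were nearer to that second kind. Aire-/- mTEChi had 38.8 and 40.3 at the former and 46.6 and 44.5 at the latter, where Brg1+/+ mTEChi had 9.98 and 10.9, and 1.51 and 18.5. On chromosome 15 both Brg1+/+ values still lay above both Aire+/+ values, 3.64 and 1.84. Among the widest ratios, Brg1+/+ mTEChi was thus near the lower Aire-/- value at the chromosome 2 region. At others, by signal as deposited, it lay between the Aire genotypes, as on chromosome 18, or near Aire+/+, as on chromosome 4.

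**Figure D3:**
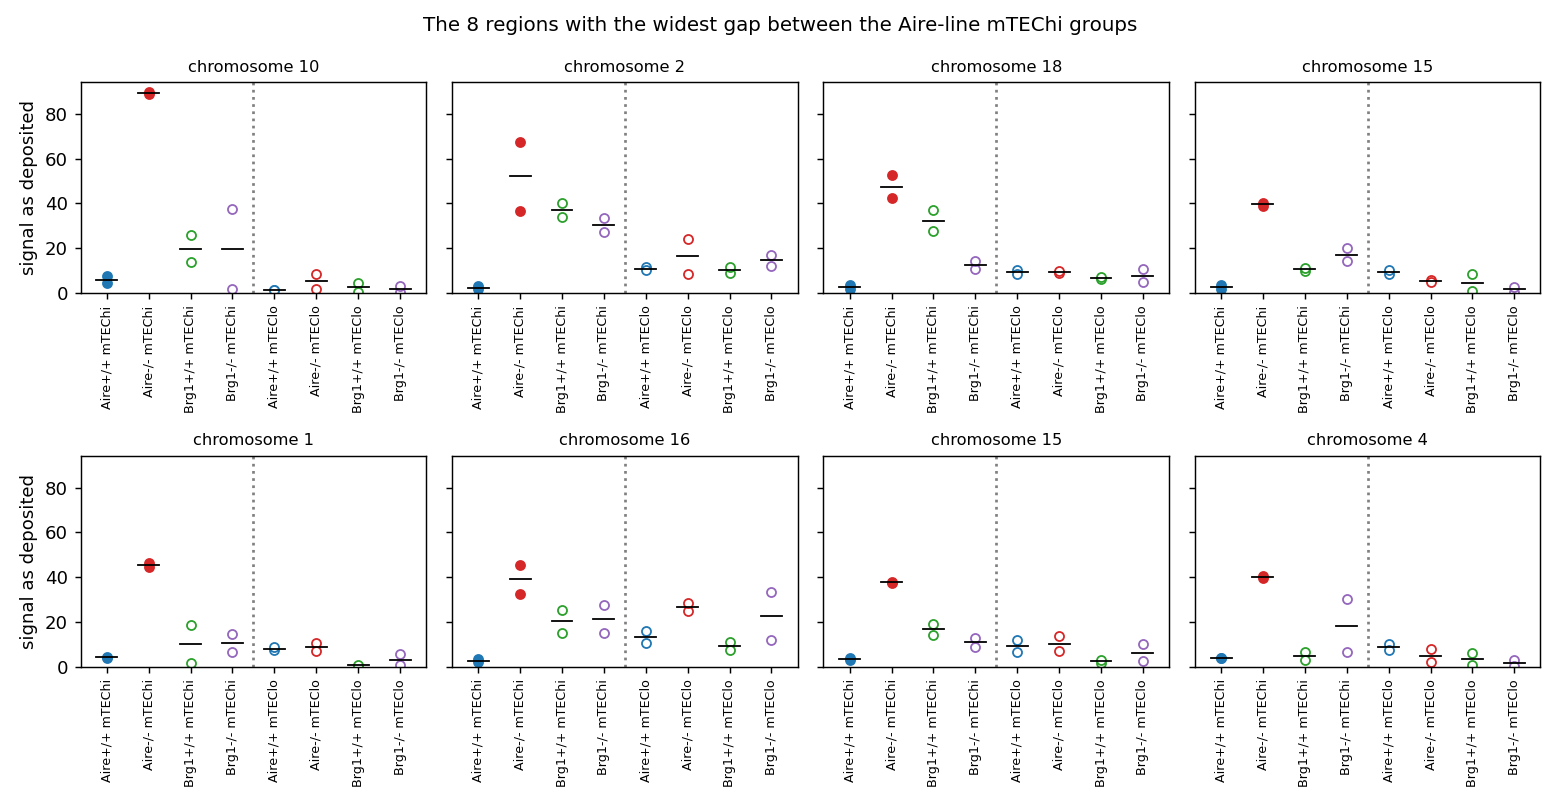
Signal as deposited in all 16 libraries at the 8 regions with the widest ratio, named by chromosome. Points are libraries (filled for Aire-line mTEChi), horizontal bars are group means, and the dotted line divides mTEChi from mTEClo. The Aire-/- mTEChi points lie above both Aire+/+ mTEChi points in every panel by choice, and the Brg1+/+ mTEChi points range from 1.51 to 40.03.

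The regions with the highest Aire-/- mTEChi mean were already open in every mTEChi group. Chromosome 8 from 75076584 to 75077083 had 83.0 and 86.5 in Aire+/+ mTEChi and 291.2 and 192.4 in Aire-/- mTEChi. Brg1+/+ mTEChi had 166.4 and 100.3 there, and Brg1-/- mTEChi 69.1 and 155.8. Chromosome 13 from 69960091 to 69960590 had 87.8 and 68.3 in Aire+/+ mTEChi and 224.6 and 208.0 in Aire-/- mTEChi. Both Brg1+/+ mTEChi values there, 58.0 and 78.4, lay below the higher Aire+/+ value. Chromosome 9 from 95080920 to 95081419 had 88.0 and 77.9 against 197.7 and 199.8, with Brg1+/+ mTEChi at 66.3 and 39.2, below both Aire+/+ values. At all 3 regions the wild-type mTEChi libraries of both lines lay below both Aire-/- libraries.

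At the edge of the rule, chromosome 2 from 120683766 to 120684265 was just inside the ratio, with 35.9 and 21.7 in Aire+/+ and 71.8 and 71.9 in Aire-/- mTEChi. Chromosome 3 from 96351213 to 96351712 was just outside it, with 20.2 and 5.30 against 40.5 and 48.3. Chromosome 7 from 46906019 to 46906518 was just inside the mean, with 9.12 and 8.06 against 37.3 and 22.7. Chromosome 11 from 95124492 to 95124991 was just outside the mean, with 8.02 and 8.90 against 31.4 and 28.5. Values just inside and just outside were close, so the number of regions is set by where the thresholds stand.

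In mTEClo no region, chosen or not, was called between the Aire genotypes. Of the 3114 chosen regions that passed the filter on low signal, 0 were called between Aire-/- and Aire+/+ mTEClo by limma at a Benjamini-Hochberg adjusted p under 0.05, as were 0% of all regions tested. No other tool was run for this contrast. At an unadjusted p under 0.05, 74 were higher and 47 lower in Aire-/-, where 1.29% and 1.21% of all regions were. The median log2 fold change was 0.069 at the chosen regions and 0.00045 over all regions, and 1701 of them (54.6%) were positive. Both Aire-/- mTEClo libraries were above both Aire+/+ ones at 618 regions (19.8%, against 16.8% of all regions), and both were below at 443 (14.2%, against 17.1%). The small positive median turned to -0.022 without Aire+/+ mTEClo replicate 1, and was 0.15 without Aire-/- mTEClo replicate 1. At regions of the mirror-image rule the median was -0.083. The sign in mTEClo thus followed that in mTEChi in both sets, at a size that 1 library could turn.

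The chosen region with the smallest p in this contrast was on chromosome 2 from 166701092 to 166701591. Its signal was 14.0 and 5.01 in Aire+/+ mTEClo and 39.9 and 43.1 in Aire-/- mTEClo, a log2 fold change of 2.16 with a limma adjusted p of 1.00. In mTEChi it had 30.1 and 14.1 in Aire+/+ and 70.1 and 76.8 in Aire-/-. The Aire-/- libraries were above the Aire+/+ ones in both sorts at this region. In the other direction, chromosome 5 from 54376793 to 54377292 had 8.62 and 20.9 in Aire+/+ mTEClo and 3.37 and 0 in Aire-/- mTEClo, while Aire-/- mTEChi was at 36.9 and 36.5.

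Loss of Brg1 gave almost no calls at regions at large and none at the chosen ones, so their absence is not particular to the chosen regions. In mTEChi, limma called 0 of the 3114 regions between Brg1-/- and Brg1+/+ at an adjusted p under 0.05, against 0.0257% of all regions. At an unadjusted p under 0.05, 182 were higher and 146 lower in Brg1-/- mTEChi, where 7.8% and 2.9% of all regions were. The median log2 fold change was 0.069, against 0.22 over all regions. Relative to that overall shift, the chosen regions lay lower in Brg1-/- mTEChi. After quantile normalization the medians were -0.19 for the chosen regions and -0.0073 for all, and limma then called 0.0642% of the chosen regions and 0.0546% of all. Both Brg1-/- libraries were above both Brg1+/+ libraries at 580 regions (18.6%, against 24.8% of all) and below both at 485 (15.6%, against 11.7%). Leaving out a library moved the share called to between 0% and 0.321%. The highest came without Brg1-/- mTEChi replicate 2, where 0.0706% of all regions were called.

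The nearest approach to a call in mTEChi was on chromosome 4 from 115519925 to 115520424. The signal there was 87.9 and 87.8 in Brg1+/+ mTEChi and 42.4 and 35.8 in Brg1-/- mTEChi, which gave a log2 fold change of -1.15, SE 0.24 and limma adjusted p of 0.0742. The same region had 77.9 and 58.8 in Aire+/+ and 157.0 and 162.8 in Aire-/- mTEChi, and between 169.9 and 231.1 in the 8 mTEClo libraries. In the other direction, chromosome 6 from 70663093 to 70663592 had 6.25 and 22.7 in Brg1+/+ mTEChi and 61.3 and 99.6 in Brg1-/- mTEChi. Its log2 fold change was 2.59 with a limma adjusted p of 0.112, and its Aire-line mTEChi values were 14.1 and 14.2 in Aire+/+ and 53.2 and 53.2 in Aire-/-. Both knockouts thus stood above their own controls at this region, without passing the threshold for Brg1. The rule required this of Aire-/-, and the region was named for its small p between the Brg1 genotypes. Nothing is therefore read from both being higher.

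In mTEClo, limma called 0 of the chosen regions between Brg1-/- and Brg1+/+, against 0.000444% of all regions. At an unadjusted p under 0.05, 123 were higher and 92 lower, where 3.15% and 3% of all regions were. The median log2 fold change was 0.12, against 0.048 over all regions. Both Brg1-/- mTEClo libraries were above both Brg1+/+ ones at 661 regions (21.2%, against 20.6% of all) and below both at 484 (15.5%, against 18.4%). The chosen region with the smallest p, on chromosome 17 from 25984174 to 25984673, had 51.5 and 53.5 in Brg1+/+ mTEClo and 13.1 and 10.4 in Brg1-/- mTEClo, with a limma adjusted p of 0.414. The difference between the Brg1 effects in the 2 sorts gave 0 calls by limma as well, against 0% of all regions. In that comparison 117 were higher and 114 lower at an unadjusted p under 0.05, where 4.91% and 2.18% of all regions were. Wild-type mTEClo of the 2 lines was compared too, and limma called 0 of the chosen regions, against 0.0368% of all. There 311 were higher and 20 lower in Aire+/+ than in Brg1+/+ mTEClo at an unadjusted p under 0.05, where 6.79% and 0.611% of all regions were. The median difference of 0.47 log2 units was near the 0.42 of all regions, and was -0.042 after quantile normalization. Both Aire+/+ mTEClo libraries were above both Brg1+/+ ones at 1278 regions (41.0%, against 39.9% of all) and below both at 161 (5.17%, against 6.19%). At the chosen regions the wild types of the 2 lines thus differed in mTEClo about as regions at large did.

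**Figure D4:**
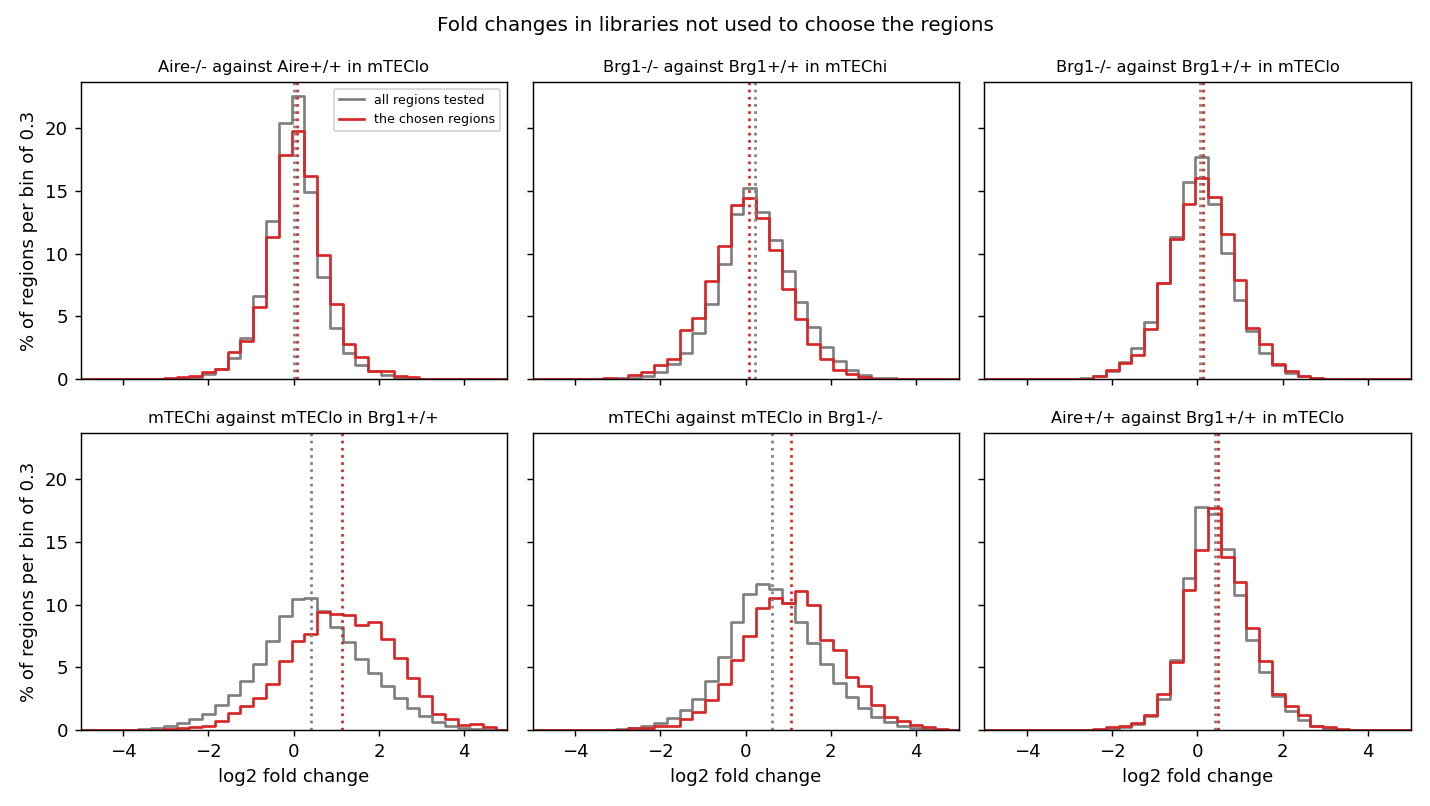
Distribution of log2 fold changes on the log2(signal + 1) scale in 6 contrasts of libraries that did not choose the regions, as the percent of regions per bin of 0.3. Red lines are the 3114 chosen regions tested, grey lines all 225281 regions tested, and dotted lines the medians. Between the Brg1 genotypes in mTEChi the red line lies lower than the grey one (medians 0.069 and 0.22). In the other genotype contrasts the red and grey medians are close. The red line is shifted to higher mTEChi in both contrasts of mTEChi with mTEClo (medians 1.14 and 1.07, against 0.42 and 0.62). A high Aire-/- mTEChi level was required of the chosen regions only.

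The chosen regions were more open in mTEChi than in mTEClo of the Brg1 line, more so than regions at large. The rule picked them on a high Aire-/- mTEChi level, and all regions were not so picked. The comparison with all regions is therefore not like for like. In Brg1+/+ cells, limma called 638 of the 3114 chosen regions (20.5%) between the 2 sorts, against 13% of all regions. Of these, 589 were higher in mTEChi (18.9%, against 9.21% of all regions) and 49 were lower (1.57%, against 3.75%). The median log2 fold change was 1.14 at the chosen regions and 0.42 over all regions, and 2560 of them (82.2%) were positive. Both mTEChi libraries were above both mTEClo libraries at 1803 regions (57.9%, against 39.1% of all) and below both at 212 (6.81%, against 16.8%). At the 2259 regions of the mirror-image rule, 200 were called higher and 140 lower in Brg1+/+ mTEChi, with a median of 0.54. The share called depended on the scaling. After quantile normalization 7.23% of the chosen regions were called, 169 higher and 56 lower, against 7.49% of all regions. The medians were then 0.59 and -0.014, so the shift relative to all regions stayed while the share called fell to that of all regions. Leaving out one of the 4 libraries gave between 7.45% and 11.6% of the chosen regions called, against 5.20% to 7.56% of all regions in the same fits, and the chosen regions had the higher share in each of the 4.

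Brg1-/- cells showed the same direction, with the same limit on the comparison with all regions. limma called 404 of the chosen regions between mTEChi and mTEClo (13.0%, against 8.11% of all regions). Of these, 371 were higher in mTEChi, where 6.61% of all regions were, and 33 were lower, where 1.5% were. The median log2 fold change was 1.07, against 0.62 over all regions. Both mTEChi libraries were above both mTEClo libraries at 1744 regions (56.0%, against 43.7% of all) and below both at 162 (5.20%, against 10.2%). After quantile normalization 4.46% of the chosen regions were called, 80 higher and 59 lower, against 4.26% of all regions, and the medians were 0.33 and -0.014. Fitting only the libraries compared gave 6.62% of the chosen regions called, against 4.99% of all regions. Leaving out 1 of the 4 libraries gave 3.79% to 7.45%, against 2.64% to 4.297% of all regions, again with the higher share at the chosen regions in each.

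In the Aire line the sort difference was present in the knockout, whose mTEChi values the rule required to be high, and absent from the wild type, whose mTEChi values it required to be low. Aire-/- mTEChi exceeded Aire-/- mTEClo by a median of 1.76 log2 units, and the difference was positive at 93.6% of the regions. Aire+/+ mTEChi fell below Aire+/+ mTEClo by a median of 0.17, with 44.2% positive, where the median over all regions was 0.15. These 2 differences contain the values that chose the regions and have no test.

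Single regions show the sort difference. On chromosome 1 from 21415706 to 21416205, Brg1+/+ cells had 85.6 and 80.1 in mTEChi and 1.96 and 0.618 in mTEClo, which gave a log2 fold change of 5.26, SE 0.75 and limma adjusted p of 2.98e-05. Aire+/+ mTEChi was at 40.8 and 43.8 there and Aire-/- mTEChi at 139.3 and 132.3. Brg1-/- mTEChi was uneven, at 24.3 and 113.6. All mTEChi values thus lay above the mTEClo values of their own genotype, with Aire-/- mTEChi the highest group.

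Chromosome 9 from 58680636 to 58681135 had 55.5 and 52.7 in Brg1+/+ mTEChi against 1.73 and 0.590 in mTEClo, a log2 fold change of 4.72 with a limma adjusted p of 1.26e-05. Its Aire-line mTEChi values were 34.7 and 36.9 in Aire+/+ and 96.9 and 122.0 in Aire-/-. In Brg1-/- cells, chromosome 8 from 86788134 to 86788633 had 41.3 and 56.1 in mTEChi against 0.485 and 0.860 in mTEClo, with a log2 fold change of 4.89 and a limma adjusted p of 9.59e-06. Brg1+/+ mTEChi was alike at 46.1 and 66.4, and so was Aire+/+ at 49.2 and 41.4, while Aire-/- mTEChi stood at 120.7 and 144.6. Both regions had more signal in mTEChi than in mTEClo in every genotype, and the most in Aire-/- mTEChi.

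In some calls both knockouts had more mTEChi signal than both wild types. On chromosome 1 from 64974993 to 64975492, Brg1-/- mTEChi had 27.3 and 46.9 and Brg1-/- mTEClo 0.517 and 0.417, a log2 fold change of 4.65 with a limma adjusted p of 0.00191. Brg1+/+ mTEChi was at 7.12 and 7.23 there, Aire+/+ mTEChi at 3.64 and 8.31, and Aire-/- mTEChi at 37.8 and 25.5. Chromosome 3 from 86112684 to 86113183 was alike, with 66.3 and 36.5 in Brg1-/- mTEChi and 15.0 and 11.03 in Brg1+/+. It had 9.42 and 19.2 in Aire+/+, and 48.9 and 67.3 in Aire-/- mTEChi. Neither was called between the Brg1 genotypes, so the gap between Brg1-/- and Brg1+/+ mTEChi did not pass the threshold. The rule required Aire-/- above Aire+/+ in mTEChi. Both regions were named as calls with high mTEChi over mTEClo signal in Brg1-/- cells. Nothing is therefore read from both knockouts being higher.

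A smaller set went the other way and was most open in mTEClo. On chromosome 18 from 69974100 to 69974599, the 8 mTEClo values were 96.9 and 113.3 in Aire+/+, 111.7 and 116.3 in Aire-/-, 109.0 and 111.6 in Brg1+/+, and 48.5 and 38.1 in Brg1-/-. In mTEChi the signal was 3.13 and 1.53 in Aire+/+, 33.0 and 28.8 in Aire-/-, 5.80 and 10.2 in Brg1+/+, and 6.16 and 13.0 in Brg1-/-. In Brg1+/+ cells mTEChi minus mTEClo was -3.67 on the log2 scale, SE 0.52, limma adjusted p of 2.94e-05. Aire-/- mTEChi, at 28.8 or more, lay above the other mTEChi groups and below all mTEClo values. The rule required it to lie above Aire+/+ mTEChi. The region was named for its low mTEChi signal relative to mTEClo in Brg1+/+ cells, so nothing is read from this order.

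Chromosome 3 from 34355756 to 34356255 had the same shape. It had 124.2 and 94.1 in Brg1+/+ mTEClo and 12.9 and 13.8 in Brg1+/+ mTEChi, with a log2 fold change of -2.93 and a limma adjusted p of 6.30e-05. Its signal was 12.7 and 10.2 in Aire+/+ mTEChi and 29.6 and 35.4 in Aire-/- mTEChi. In Brg1-/- cells, chromosome 2 from 33087125 to 33087624 had 11.3 and 1.41 in mTEChi and 39.98 and 60.1 in mTEClo, a log2 fold change of -3.20 with a limma adjusted p of 0.000650. Aire+/+ mTEChi was at 7.58 and 15.9 there and Aire-/- mTEChi at 42.8 and 59.4. The call on chromosome 17 from 81924187 to 81924686 was made in both Brg1 genotypes, with log2 fold changes of -3.47 (limma adjusted p of 0.000628) and -2.63 (limma adjusted p of 0.0119). The Brg1-/- call was lost without any one of 3 libraries, Brg1-/- mTEChi replicate 1 and either Brg1-/- mTEClo library, with an adjusted p of up to 0.243.

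The mTEClo level divided the chosen regions into 3 kinds. At 2208 regions (70.9%, against 67.2% of all regions) the signal was under 30 in all 8 mTEClo libraries. At 122 (3.92%, against 10.3% of all regions) it was at least 30 in all 8, and the other 785 were mixed. The 122 regions open throughout mTEClo had median mTEClo signals from 56.9 to 75.1. Their medians were 16.4 and 17.3 in Aire+/+ mTEChi, 55.3 and 53.1 in Aire-/-, 34.9 and 41.0 in Brg1+/+, and 37.4 and 37.9 in Brg1-/- mTEChi. By median signal Aire+/+ mTEChi was the lowest of the 8 groups at these regions, which the rule favours. On the 0 to 1 scale Brg1+/+ mTEChi lay at a median of 0.62, and it was nearer to Aire-/- at 79 of the 122 (64.8%). At the 2208 regions low in mTEClo its median was 0.33 and 750 (34.0%) were nearer to Aire-/-, and at the mixed ones the median was 0.55. In the mirror-image set the medians, measured from Aire-/- towards Aire+/+, were 0.25 at regions low in mTEClo, 0.36 at mixed ones and 0.57 at open ones. In both sets Brg1+/+ mTEChi thus lay closer to the genotype chosen as high the more open a region was in mTEClo, so the pattern is not one of Aire-/- in particular.

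At the 507 regions with an Aire-/- mTEChi mean of at least 60, limma called 41.2% between mTEChi and mTEClo in Brg1+/+ cells and 23.9% in Brg1-/- cells, against 13% and 8.11% of all regions. These 507 were picked on a high mTEChi level, and all regions were not. Over all 12 libraries that were not used, 1010 of the chosen regions (32.4%, against 45.9% of all regions) stayed under 30. At 67 (2.15%, against 1.58% of all regions) the signal was at least 30 in all 4 Brg1-line mTEChi libraries and under 30 in all 8 mTEClo libraries.

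Along the genome the chosen regions lay on all 19 autosomes and X, at shares from 0.884% of the regions of chromosome 11 (157 of 17762) to 1.72% of those of chromosome 3 (213 of 12411). They were somewhat more frequent among regions in sparse stretches, but few lay there. Of the chosen regions, 1044 had over 20 other regions within 50 kb and 168 had 0 to 2. The median number within 50 kb was 15, against 17 for all regions. The next region in the table began a median of 2026 bp away, against 1531 bp for all regions and 1453 bp for the mirror-image set. The share of regions that were chosen fell from 1.69% where 0 to 2 other regions lay within 50 kb to 1.12% where over 20 did. Even so, 751 of them (24.1%) had another chosen region within 50 kb, against 17.6% of the regions that were not chosen. The other regions within 10 kb of a chosen one, 10412 in number, had a median Aire-/- minus Aire+/+ difference in mTEChi of 0.15 log2 units, against -0.0015 over all regions. Positions were not used by the rule, but neighbouring regions share libraries and are not independent, and no test was made.

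Chained at gaps of at most 50 kb, 2364 chosen regions stood alone, 257 pairs formed, and 237 regions fell in 67 runs of 3 or more. There were 8 runs of 5 or more. The longest lay on chromosome 17 from 34403967 to 34546454, 142488 bp in which 11 of 122 regions (9.02%) were chosen. The mouse major histocompatibility complex is on chromosome 17, and whether this run lies in it was not analysed here. The medians of the 11 were 12.7 and 15.9 in Aire+/+ mTEChi, 39.8 and 63.6 in Aire-/-, 27.1 and 16.3 in Brg1+/+, and 9.97 and 18.1 in Brg1-/- mTEChi. They were between 2.68 and 11.3 in the mTEClo libraries. All 11 had a positive mTEChi minus mTEClo difference in Brg1+/+ cells, with 2 called higher by limma.

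Within the run, the region from 34445091 to 34445590 of chromosome 17 had the highest Aire-/- mTEChi mean, 115.1, from libraries at 100.01 and 130.1, against 39.9 and 20.4 in Aire+/+ mTEChi. Its Brg1+/+ mTEChi signal was 32.8 and 28.9, within the Aire+/+ range. The 111 other regions inside the run were also open in mTEChi, with medians of 49.3 and 28.0 in Aire+/+ and 45.4 and 69.6 in Aire-/-. Of the 107 that were tested, 27 were called higher in mTEChi than in mTEClo of Brg1+/+ cells. Their median Aire-/- minus Aire+/+ difference in mTEChi was 0.68, with 98 positive. The library medians of the 2 genotypes overlapped, and both pairs of libraries lay apart. Most regions of the run that were not chosen thus also had a higher Aire-/- mean.

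**Figure D5:**
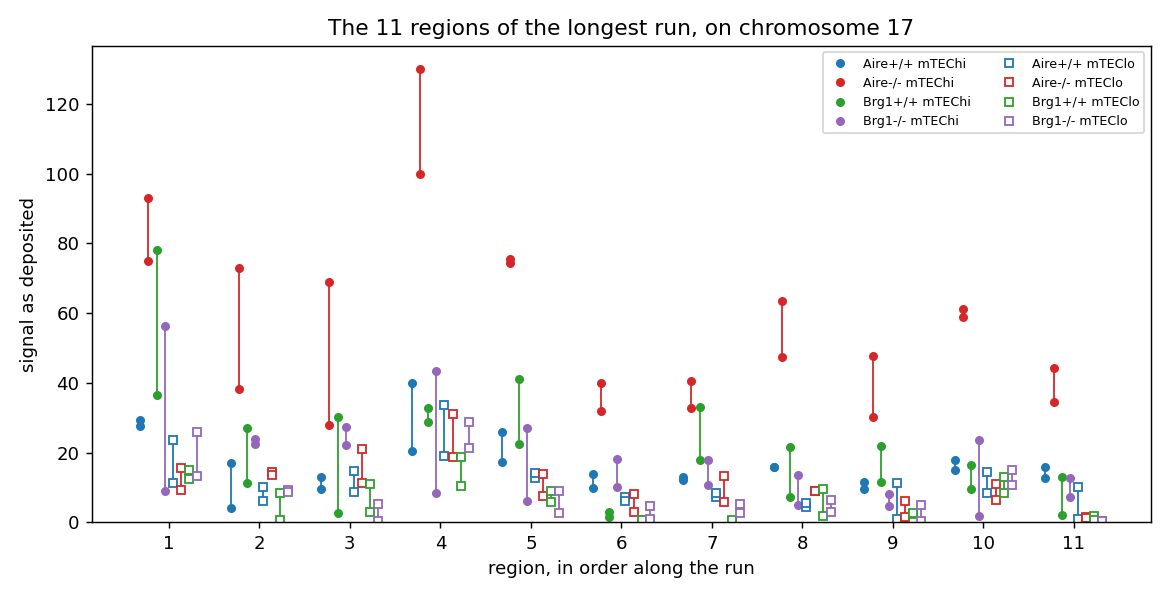
Signal as deposited at the 11 chosen regions of the longest run, in order along chromosome 17, with 1 point per library joined within a group (filled circles for mTEChi, open squares for mTEClo). The Aire-/- mTEChi points lie above both Aire+/+ mTEChi points at every region by choice, and most Brg1-line and mTEClo points lie below them.

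Of the other runs of 5 or more, one on chromosome 17 from 50126492 to 50188069 held 7 of 35 regions. Its chosen regions had medians of 14.2 and 7.85 in Aire+/+ mTEChi, 54.6 and 44.9 in Aire-/-, and 12.9 and 28.9 in Brg1+/+ mTEChi. A run on chromosome 3 from 90354439 to 90425970 held 6 of 35 regions, with 9.16 and 5.74 in Aire+/+, and 34.6 and 31.8 in Aire-/- mTEChi. Brg1+/+ mTEChi was at 7.83 and 19.1 there and Brg1-/- mTEChi at 30.1 and 26.5. The densest, on chromosome 18 from 62363447 to 62410217, held 5 of 9 regions. There the Brg1-line mTEChi medians, from 27.5 to 47.9, reached the 29.0 and 36.6 of Aire-/- mTEChi, and Aire+/+ mTEChi was at 9.64 and 11.4. The rule required low Aire+/+ values at these 5 regions, so nothing is read from Aire+/+ being the lowest mTEChi group there. In the chromosome 17 and chromosome 3 runs above, the lower Brg1+/+ mTEChi median lay between those of Aire+/+.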

How the data were processed

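The authors deposited 1 table of normalized ATAC-seq signal (unit: signal, never negative) for 250313 regions in 16 libraries; each column matched the description of 1 library. Bowtie2, MACS2 and mm9 are named in the submitters' processing notes, with no versions. The definition of regions, any Tn5 shift of reads and the scaling are not given in the sources used here. Whole reads could not be recovered, so library depth is unknown and count tests were not run. Starts, taken as 0-based, are printed 1-based. limma 3.58.1 (R 4.3.3) was fitted to log2(signal + 1) with 1 mean per group over all 16 libraries (8 residual degrees of freedom, trend and robust moderation), which understates fold changes at low signal. Regions with a mean under the 10th percentile (7.48) were left out (25032, among them 1 chosen region). Calls are two-sided at a Benjamini-Hochberg adjusted p under 0.05 over the 225281 regions kept. The procedure was tested on simulated data.

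Named regions were the 8 widest ratios, the 5 highest means, up to 5 calls per direction and contrast (or the 3 smallest p where none was called), those next to the thresholds, and runs of 3 or more. The text gives a subset. The chosen regions, lists and tests were picked with earlier results of these data known. Alternatives were a pseudocount of 0.5 or 5, no filter or one at the 50th percentile, quantile normalization, a replicate block, fewer libraries in the fit, each library left out, and other forms of the rule.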

Additional observations from a re-analysis of the deposited data

How the results depend on the processing

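Directions between mTEChi and mTEClo held under most settings. Medians between genotypes or lines changed sign under some. Among them, the median between the Brg1 genotypes in mTEChi turned negative after quantile normalization. After quantile normalization the share of chosen regions called between mTEChi and mTEClo was 7.23% in Brg1+/+ and 4.46% in Brg1-/- cells (20.5% and 13.0% as reported), against 7.49% and 4.26% of all regions, with medians of 0.59 and 0.33. The share called between the Brg1 genotypes in mTEChi became 0.0642% (0.0546% of all regions), and the median between wild-type mTEClo of the lines -0.042. For Brg1+/+ cells the median of 1.14 became 0.83 with a pseudocount of 5 and 0.97 with the filter at the 50th percentile. Only the compared libraries in the fit gave 6.62% called in Brg1-/- cells (4.99% of all regions). Leaving out 1 replicate gave 7.45% to 11.6% called in Brg1+/+ cells (5.20% to 7.56% of all regions), 3.79% to 7.45% in Brg1-/- cells (2.64% to 4.297%), 0% to 0.321% between Brg1 genotypes in mTEChi, and a median of -0.022 to 0.15 between Aire genotypes in mTEClo. The cause of these moves was not tested.

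The rule took 6799, 8083, 12302 and 8841 regions without Aire-/- replicate 1, Aire-/- replicate 2, Aire+/+ replicate 1 and Aire+/+ replicate 2. It took 991 at a ratio of 3, 7070 at 1.5 and 507 at a mean of 60. After quantile normalization it took 2468, of which 1946 were shared (62.5% of the chosen regions, 78.8% of that list). The sets chosen without Aire-/- replicate 1, Aire+/+ replicate 1 and Aire+/+ replicate 2, and at a ratio of 1.5, gave 0.0444%, 0.0325%, 0.0226% and 0.0283% called between the Brg1 genotypes in mTEChi, against 0.0257% of all regions. Those chosen without Aire-/- replicate 1 and replicate 2 gave 0.0148% and 0.0125% between wild-type mTEClo of the lines, against 0.0368% of all regions. The set without Aire-/- replicate 1 had a median of 0.95 between the sorts in Brg1+/+ cells. At a mean of 60 that median was 1.47, with 41.2% called, and 23.9% were called in Brg1-/- cells, against 13% and 8.11% of all regions.

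With the replicate block, 637 regions (20.5%) were called in Brg1+/+ and 400 in Brg1-/- cells, against 638 and 404 without it. Replicate differences of compared groups correlated at -0.0036 to 0.034, so no shared shift by replicate number was seen. Whether samples with the same number belong together is not stated. Depth is unknown and each group has 2 libraries, which limits all calls.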
